A study of Homo sapiens with 4 samples.

Results

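The aldo-keto reductases were followed in 4 RNA-seq libraries of human hepatocellular carcinoma cell lines, taken with or without knockdown of SCD, the stearoyl-CoA desaturase that puts the double bond into saturated fatty acyl chains. The members were 10 genes taken by symbol, AKR1A1, AKR1B1, AKR1B10, AKR1C1, AKR1C2, AKR1C3, AKR1C4, AKR1D1, AKR7A2 and AKR7A3, of 25343 gene symbols listed, and all 10 were found. The family was chosen by measured values of the same data, because AKR1C3 differed in opposite directions between knockdown and control in the 2 lines, so the knockdown values below are a description with no test. Huh7 and PLC/PRF/5 are lines grown from liver tumours. The groups were Huh7 with a non-target control vector, Huh7 with a short hairpin RNA against SCD (shSCD1#13, SCD being SCD1 in the labels), and the same pair in PLC/PRF/5, with 1 library each. All 4 had been given their construct by lentivirus and selected with puromycin, and all were grown in DMEM-HG with FBS, so the controls also carry a vector and passed selection. In what follows, "with the hairpin" means the SCD knockdown library of a line and "without" its control library. The knockdown rests on 1 hairpin, and the labels do not say whether clones or mixed populations were kept.

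Aldo-keto reductases are soluble enzymes that use NADPH to reduce aldehydes and ketones to alcohols. The AKR1C enzymes act on steroids, prostaglandins and bile acid precursors, AKR1D1 reduces the double bond of the steroid A ring in bile acid synthesis, and AKR1B1 (aldose reductase) and AKR1B10 reduce sugars, retinal and lipid aldehydes. AKR1A1 and the AKR7A enzymes clear further reactive aldehydes. In liver the family takes part in bile acid and steroid metabolism and in detoxification, and several members are known targets of the oxidative stress factor NRF2.

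The AKR1C genes lie side by side on chromosome 10, in the order AKR1C1, AKR1C2, AKR1C3, AKR1C4 with AKR1C8 before the last. AKR1B1, AKR1B10 and AKR1D1 are on chromosome 7, and AKR1A1, AKR7A2 and AKR7A3 on chromosome 1. Each of the 4 AKR1C coding sequences has 972 bases, and AKR1C1 and AKR1C2 are 98.0% identical, differing at 19 positions. AKR1C3 is 91.7% and AKR1C4 88.9% identical to AKR1C1. The last 150 coding bases (823 to 972, from GENCODE 29 transcripts) are shown because 40 of their positions vary among the 4 genes, the highest number of any 150-base window taken in steps of 3 bases (the lowest is 12). Capitals mark bases unlike AKR1C1, of which there are 0 in AKR1C2, 18 in AKR1C3 and 31 in AKR1C4.
AKR1C1: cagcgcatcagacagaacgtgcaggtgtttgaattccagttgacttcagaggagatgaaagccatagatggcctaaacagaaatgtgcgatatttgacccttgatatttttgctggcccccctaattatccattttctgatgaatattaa
AKR1C2: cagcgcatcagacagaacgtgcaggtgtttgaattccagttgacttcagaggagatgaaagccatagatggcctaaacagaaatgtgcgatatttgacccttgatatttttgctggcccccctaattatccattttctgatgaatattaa
AKR1C3: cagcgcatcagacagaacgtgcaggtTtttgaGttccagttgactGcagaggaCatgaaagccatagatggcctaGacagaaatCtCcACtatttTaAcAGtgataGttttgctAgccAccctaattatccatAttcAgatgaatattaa
AKR1C4: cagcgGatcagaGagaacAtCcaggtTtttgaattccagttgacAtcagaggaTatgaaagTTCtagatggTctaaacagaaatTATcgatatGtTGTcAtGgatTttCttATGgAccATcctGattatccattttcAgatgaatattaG

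The identity bears on every AKR1C value below, because the estimator named in the submitters' notes, RSEM, divides a read that fits more than 1 gene between those genes. Of the 31-base words in the coding sequence, 71.1% in AKR1C1 and 70.7% in AKR1C2 also occurred in a transcript of another gene, mostly in each other (66.9% each). The share was 32.9% in AKR1C3 and 27.7% in AKR1C4. It was 46.6% in AKR1B10, whose closest gene was AKR1B15, and 50.5% in AKR7A3, whose closest gene was AKR7L. AKR1B1 had 29.8%, AKR7A2 19.5%, AKR1D1 3.89% and AKR1A1 0%. Levels of single AKR1C genes, AKR1B10 and AKR7A3 are therefore uncertain. Summed values of close copies are given for the AKR1C genes and for AKR1B10. AKR1B1, with a share like that of AKR1C4, is given without a sum and has a like limit. The words cover coding sequence only and do not measure how many reads were shared.

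Starts of the AKR1C genes are shown next, because these neighbours were all lower in the PLC/PRF/5 knockdown library. Each sequence runs from 250 bases before to 50 bases after a RefSeq transcription start, on GRCh38.p14, a different build from the authors' hg19. Capitals mark the CCAAT box, read on either strand and here always as its complement ATTGG.
AKR1C1, chr10:4963165-4963464, plus strand: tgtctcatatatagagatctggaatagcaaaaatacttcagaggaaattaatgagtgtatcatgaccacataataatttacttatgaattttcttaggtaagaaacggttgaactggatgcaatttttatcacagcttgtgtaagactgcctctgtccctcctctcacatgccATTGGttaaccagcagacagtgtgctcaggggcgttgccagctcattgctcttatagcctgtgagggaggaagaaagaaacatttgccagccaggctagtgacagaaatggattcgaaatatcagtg
AKR1C2, chr10:5003808-5004107, minus strand: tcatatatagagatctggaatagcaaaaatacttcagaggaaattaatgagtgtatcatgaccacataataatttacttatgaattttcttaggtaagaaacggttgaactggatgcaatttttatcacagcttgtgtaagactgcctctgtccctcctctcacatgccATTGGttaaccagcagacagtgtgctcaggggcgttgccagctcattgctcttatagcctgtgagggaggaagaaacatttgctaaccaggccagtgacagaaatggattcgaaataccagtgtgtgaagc
AKR1C3, upstream start, chr10:5048531-5048830, plus strand: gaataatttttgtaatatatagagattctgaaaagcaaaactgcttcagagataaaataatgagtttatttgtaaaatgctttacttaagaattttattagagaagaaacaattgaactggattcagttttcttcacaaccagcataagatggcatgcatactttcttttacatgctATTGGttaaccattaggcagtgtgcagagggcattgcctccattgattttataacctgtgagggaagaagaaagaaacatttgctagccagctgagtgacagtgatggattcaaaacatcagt
AKR1C3, downstream start, chr10:5094164-5094463, plus strand: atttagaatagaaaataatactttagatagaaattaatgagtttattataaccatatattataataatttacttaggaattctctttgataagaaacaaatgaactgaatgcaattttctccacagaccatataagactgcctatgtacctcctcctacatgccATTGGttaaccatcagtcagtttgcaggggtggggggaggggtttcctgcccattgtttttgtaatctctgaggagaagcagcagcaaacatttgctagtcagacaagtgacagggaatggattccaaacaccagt
AKR1C4, chr10:5196587-5196886, plus strand: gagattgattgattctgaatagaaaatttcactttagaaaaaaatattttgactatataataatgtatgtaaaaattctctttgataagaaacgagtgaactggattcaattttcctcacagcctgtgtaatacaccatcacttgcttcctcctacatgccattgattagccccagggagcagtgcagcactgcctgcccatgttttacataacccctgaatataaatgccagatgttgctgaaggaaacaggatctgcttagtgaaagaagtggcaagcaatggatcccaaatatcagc

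The starts of AKR1C1 and AKR1C2 were 93.5% identical over their alignment, and those of AKR1C1 and AKR1C4 64.0%. A CCAAT match stood at -77 in AKR1C1, -81 in AKR1C2, and -73 and -86 at the 2 starts of AKR1C3, counting from the transcription start to the first base of the match. AKR1C4 held no such letters in this window. CCAAT occurred in 34.6% of all 35116 RefSeq starts of this length. Another 4 patterns were searched on both strands: the antioxidant response element TGACNNNGC (13.3% of all starts), the AP-1 pattern TGANTCA (7.71%), which can overlap the first, TATAAA (11.5%) and the sterol element TCACNCCAC (1.13%). Among the AKR1C starts, TATAAA occurred in AKR1C4 and at the upstream start of AKR1C3, and none of the other 3 patterns occurred. Of all members with an entry (9 of 10, without AKR1B10), the antioxidant element letters were found only at the starts of AKR7A2. These are matches of letters in short windows and not measured binding sites.

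The libraries met their labels in the targeted gene. SCD had 1755 TPM without and 137 TPM with the hairpin in Huh7, against 1111 and 178 TPM in PLC/PRF/5. TPM is a level per transcript length within a library of fixed total, so sequencing depth is unknown. All 12 hepatocyte and hepatoma markers were listed above 0 in every library, although the transthyretin gene TTR was at 0.41 TPM or less in PLC/PRF/5. Of the 4 endothelial markers, CDH5, VWF and KDR were at 0.16 TPM or less and PECAM1 at 1.44 to 3.35 TPM. Of the leukocyte markers, PTPRC and CD3E were at 0.99 TPM or less, CD14 had 2.53 and 2.81 TPM in the Huh7 libraries and no more than 0.38 TPM in PLC/PRF/5, and LYZ was at 1008 to 2600 TPM throughout. Of the fibroblast list, LUM had 10.8 TPM without and 60.0 TPM with the hairpin in Huh7, and COL1A2 30.9 and 9.63 TPM, within list sums of 55.8 and 77.6 TPM there and 3.47 and 2.53 TPM in PLC/PRF/5. Their part in the values below was not tested.

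AKR1C3, also known as 17-beta-hydroxysteroid dehydrogenase type 5 and as prostaglandin F synthase, moved most within the family. Huh7 cells had 4.21 TPM without and 31 TPM with the hairpin. PLC/PRF/5 cells had 72 TPM without it and 35.2 TPM with it. The control libraries were thus 17.1-fold apart, with PLC/PRF/5 higher, and the knockdown libraries 1.14-fold apart. Within Huh7 the difference was 7.36-fold upward (log2 fold change 2.62, on log2 of TPM plus 1 as everywhere below), the 13th highest of 13485 genes considered. Genes were considered in a line at 1 TPM or more in at least 1 of its libraries. Within PLC/PRF/5 it was 2.05-fold downward (log2 fold change -1.01), the 143rd lowest of 13057. In bulk RNA, fewer cells with a transcript and less of it per cell cannot be told apart.

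AKR1C2, which inactivates dihydrotestosterone, had the same pattern with a smaller difference in Huh7. Huh7 cells had 35.4 TPM without and 82.3 TPM with the hairpin, and PLC/PRF/5 cells 98.0 and 48.9 TPM. With the hairpin it was 2.32-fold higher in Huh7 (log2 fold change 1.19) and 2.0-fold lower in PLC/PRF/5 (-0.99).

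AKR1C4, the liver enzyme that reduces bile acid precursors and steroids, was the lowest of the subfamily. Huh7 cells had 1.08 TPM without and 6.38 TPM with the hairpin, and PLC/PRF/5 cells 1.11 and 0.68 TPM. The 2 controls were at nearly 1 level, and the Huh7 knockdown alone stood above them, with a log2 fold change of 1.83 in Huh7 and -0.33 in PLC/PRF/5.

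AKR1C1, a 20-alpha-hydroxysteroid dehydrogenase that inactivates progesterone, differed from its neighbours in Huh7. It was the most abundant family member there, with 835 TPM without and 801 TPM with the hairpin (log2 fold change -0.06). PLC/PRF/5 cells had 93.7 and 47.8 TPM (-0.96, 1.96-fold lower). AKR1C1 was therefore nearly level in Huh7 while AKR1C2, AKR1C3 and AKR1C4 were higher in the knockdown library.

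**Figure D1:**
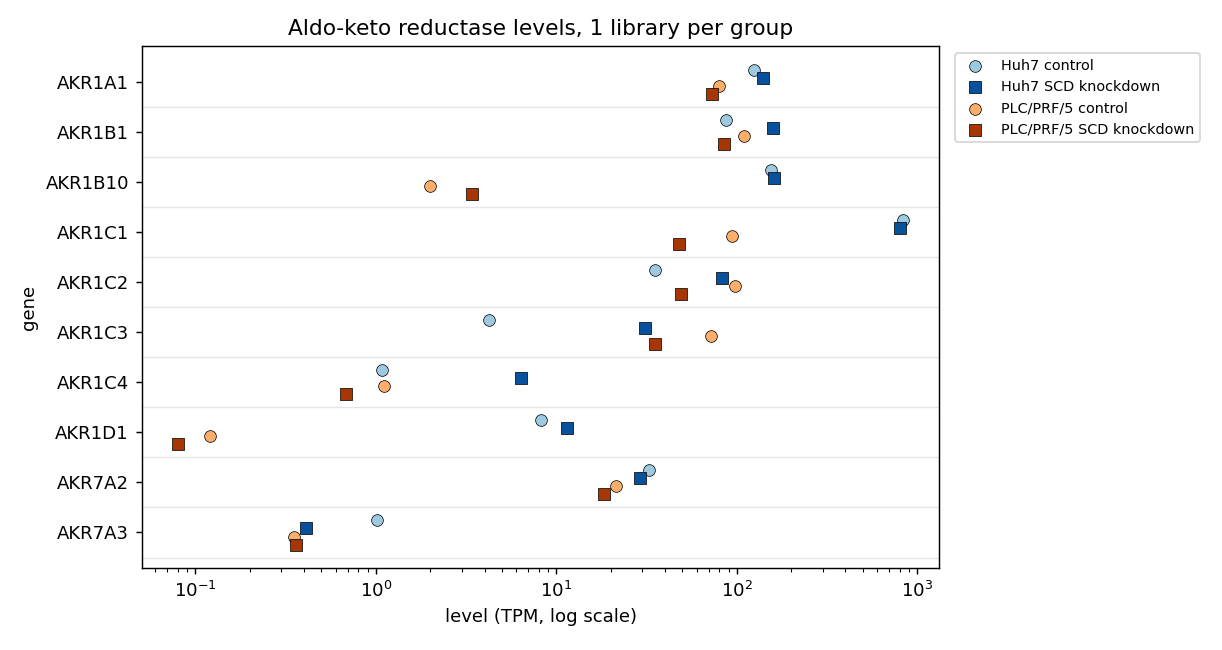
Level of each aldo-keto reductase in TPM on a log axis, with 1 point per library (circles, controls; squares, knockdowns; blue, Huh7; orange and brown, PLC/PRF/5). AKR1C3 spans 4.21 to 72 TPM, with the Huh7 control far below the other 3 libraries, and AKR1B10 and AKR1D1 separate by line.

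Summing the 4 genes is less open to how reads were shared among them. In Huh7 the sum mostly reflects AKR1C1, which held 95.4% of it in the control. It therefore says little about AKR1C2, AKR1C3 and AKR1C4 in that line. In PLC/PRF/5 the sum was lower with the hairpin, as the single genes were. The AKR1C sum in Huh7 was 876 TPM without and 920 TPM with the hairpin, a log2 fold change of 0.07 that became -0.03 when libraries were rescaled by median ratios. In PLC/PRF/5 the sum was 265 and 133 TPM, 2.0-fold lower (-0.99, and -1.14 after rescaling). AKR1C1 and AKR1C2 together were at 871 TPM without and 883 TPM with the hairpin (Huh7), against 192 and 96.7 TPM (PLC/PRF/5).

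The makeup of the sum moved in Huh7 and hardly at all in PLC/PRF/5. AKR1C1 held 95.4% of the AKR1C sum in the Huh7 control and 87.0% in the knockdown, AKR1C2 4.04% and 8.94%, AKR1C3 0.481% and 3.37%, and AKR1C4 0.123% and 0.693%. In PLC/PRF/5 the shares were 35.4% and 36.0% for AKR1C1, 37.0% and 36.9% for AKR1C2, 27.2% and 26.6% for AKR1C3, and 0.419% and 0.513% for AKR1C4. AKR1C1, AKR1C2 and AKR1C3 were thus lower in near proportion in that line. AKR1C4, at 1.11 TPM or less there, was 1.63-fold lower. How far shared reads set the split was not tested in either line, including Huh7, where AKR1C1 far exceeded its copies.

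**Figure D2:**
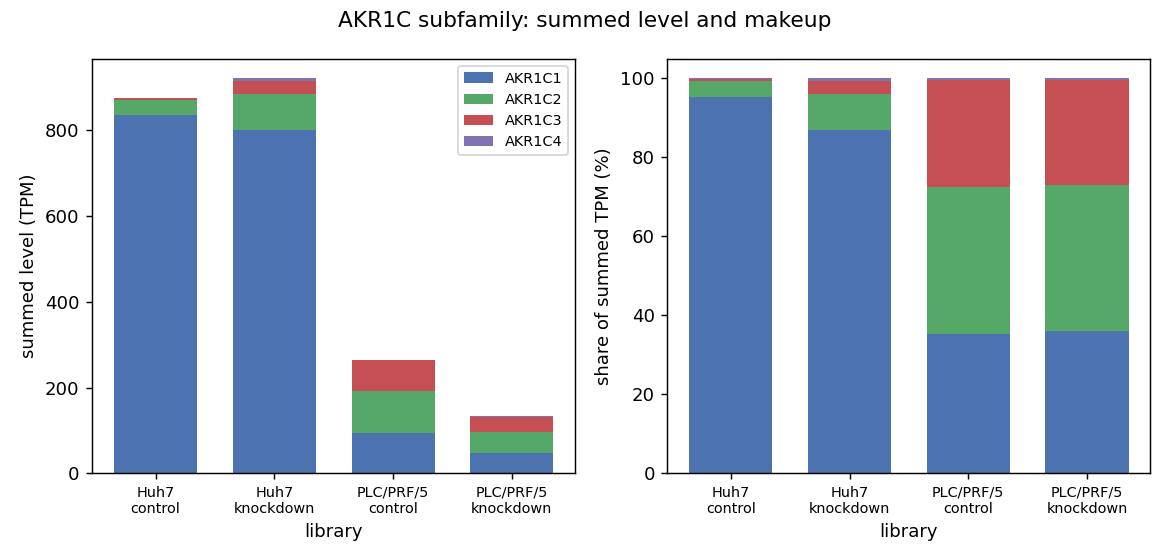
Stacked bars of AKR1C1, AKR1C2, AKR1C3 and AKR1C4 in each library, as summed TPM (left) and as a percentage of that sum (right). The summed level is 876 and 920 TPM in the Huh7 libraries and goes from 265 to 133 TPM in PLC/PRF/5, where the makeup stays nearly the same.

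AKR1D1, the 5-beta-reductase of bile acid synthesis, was a gene of the Huh7 libraries. Huh7 cells had 8.23 TPM without and 11.5 TPM with the hairpin, against 0.12 and 0.08 TPM in PLC/PRF/5. The log2 fold change was 0.44 in Huh7, and PLC/PRF/5 was too low to be considered.

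AKR1B1, aldose reductase, which makes sorbitol from glucose, had the most unequal differences of the 2 lines outside AKR1C. It stood at 86.9 TPM without and 158 TPM with the hairpin (Huh7), against 110 and 84.4 TPM (PLC/PRF/5). The log2 fold changes were 0.86 (1.82-fold) and -0.38 (1.31-fold lower). The Huh7 library with the hairpin was thus the highest of the 4, and AKR1B1 was the most abundant member in both PLC/PRF/5 libraries.

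AKR1B10, a retinal and lipid aldehyde reductase often raised in liver tumours, depended on the line far more than on the hairpin. Huh7 cells had 154 TPM without and 161 TPM with the hairpin, against 1.99 and 3.39 TPM in PLC/PRF/5. The log2 fold change was 0.06 in Huh7, which became -0.03 after median-ratio rescaling, and 0.55 in PLC/PRF/5, where it was the 1 member higher in the knockdown library among 8 considered. Its close copy AKR1B15 was at 1.10 TPM or less in every library, so the sum of the pair moved alike (0.06 and 0.55).

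AKR1A1, the general aldehyde reductase, and AKR7A2, which reduces succinic semialdehyde, had log2 fold changes between -0.20 and 0.15. AKR1A1 was at 125 TPM without and 139 TPM with the hairpin (Huh7), against 79.4 and 72.8 TPM (PLC/PRF/5), with log2 fold changes of 0.15 and -0.12. AKR7A2 was at 32.5 TPM without and 28.9 TPM with the hairpin (Huh7), against 21.4 and 18.4 TPM (PLC/PRF/5), with log2 fold changes of -0.16 and -0.20. AKR7A3, which reduces aflatoxin dialdehyde, was at 1.02 TPM without and 0.41 TPM with the hairpin (Huh7), against 0.35 and 0.36 TPM (PLC/PRF/5), too low to read.

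Counted over the family, 3 of 10 members considered in Huh7 were at least 2-fold higher in the knockdown library (AKR1C2, AKR1C3 and AKR1C4), against 3.10% of all genes, and 0 were 2-fold lower, against 1.54%. In PLC/PRF/5, 0 of 8 were 2-fold higher, against 1.72% of all genes, and 1 (AKR1C3) was 2-fold lower, against 1.11%, with AKR1C2 and AKR1C1 just short of the limit. After median-ratio rescaling all 3 passed it, and with a pseudocount of 5 AKR1C3 did not. Since these differences chose the family, nothing is read from the counts. The median log2 fold change of the members was 0.29 in Huh7 and -0.36 in PLC/PRF/5, beside 0.08 and 0.10 for all genes considered. Of the 2-fold genes of PLC/PRF/5, 60.8% were higher in the knockdown, and 40.7% after rescaling, which lowered the median fold change by 0.09 in Huh7 and 0.14 in PLC/PRF/5.

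Of the 8 members with a value in each line, 5 had a positive fold change in Huh7 and a negative one in PLC/PRF/5: AKR1A1, AKR1B1, AKR1C2, AKR1C3 and AKR1C4. Among all 12064 genes considered in both lines, 1702 (14.1%) had that pattern and 2033 the reverse. The family was chosen through this pattern in AKR1C3, and the AKR1C genes share reads, so nothing is read from the count. AKR1A1 was near 0, with 0.15 in Huh7 and -0.12 in PLC/PRF/5, and 0.05 and -0.27 after median-ratio rescaling. No member had the reverse pattern, 2 were lower in both (AKR1C1 and AKR7A2) and 1 higher in both (AKR1B10, with the sign change under rescaling given above). The design has 1 library per group, so a difference between the lines in the response to the hairpin has no test.

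**Figure D3:**
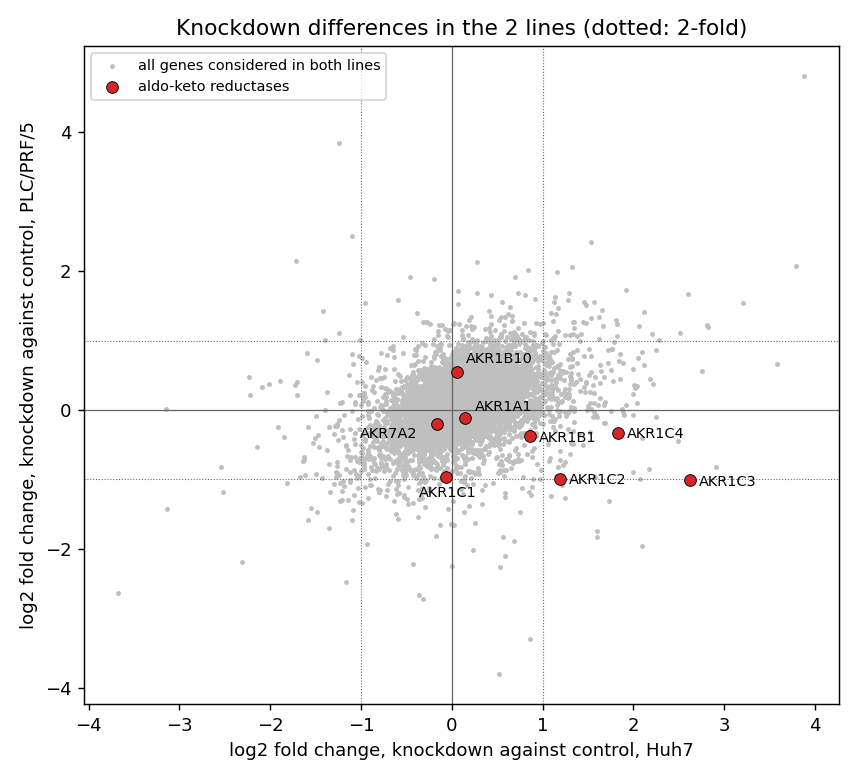
Log2 fold change of knockdown against control in Huh7 (horizontal) and PLC/PRF/5 (vertical) for 12064 genes considered in both lines (grey) and the 8 members among them (red), with dotted lines at 2-fold. AKR1C3 lies at 2.62 and -1.01, in the lower right corner with AKR1C2 and AKR1C4, and AKR1C1 lies straight below the origin.

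The knockdown difference common to both lines was also fitted in limma, with cell line as a term, over 13813 genes at 1 TPM or more in at least 2 libraries. At an adjusted p of 0.05 it called 0.00724% of all genes, which is 1 gene and no member, and at an unadjusted p of 0.05, 2483 genes. It is no test of the members: their choice used these differences, and opposite differences enlarge its residual. Nothing is read from it for the 9 members it held (AKR7A3 was too low).

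Levels differed between the lines for several members, a contrast that the choice of the family did not use. AKR1B10 was 77.3-fold higher in Huh7 than in PLC/PRF/5 between the controls and 47.5-fold between the knockdowns. In limma with arm as a term, the log2 difference was 5.45 with a standard error of 0.17 (adjusted p = 1.8e-04), higher in Huh7 in both arms. AKR1C1 was 8.92-fold and 16.8-fold higher in Huh7 in the 2 arms, a log2 difference of 3.59 with a standard error of 0.22 (limma, adjusted p = 5.7e-04). AKR1D1 differed by 3.29 with a standard error of 0.22 (limma, adjusted p = 6.7e-04), but it entered the fit only through its Huh7 levels and so had to differ. AKR1A1 (0.79, adjusted p = 0.00385) and AKR7A2 (0.60, adjusted p = 0.0118) were also higher in Huh7 in limma, by 1.91-fold or less in either arm.

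Over all genes, 28.3% passed as higher in Huh7 and 31.5% as lower. Since AKR1D1 had to differ and the choice of AKR1C3 bears on its test, no count over the family is read against these shares. The fit treats the control and the knockdown library of a line as its replicates. Its p-values measure the likeness of both arms and not variation between cultures.

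AKR1B1, AKR1C2 and AKR1C4 did not pass, and their line difference depended on the arm. AKR1B1 differed by 0.28 with a standard error of 0.30 (limma, adjusted p = 0.456) and AKR1C2 by -0.35 with a standard error of 0.51 (limma, adjusted p = 0.580), each lower in Huh7 between the controls (-0.34 and -1.44) and higher between the knockdowns (0.90 and 0.74). AKR1C4 differed by -0.02 between the controls and 2.14 between the knockdowns (limma, adjusted p = 0.148). AKR1C3 differed by -3.81 and -0.18, and is given without a test because its choice fixed the spread of the fit. The AKR1C sum was 3.31-fold higher in Huh7 between the controls and 6.94-fold between the knockdowns.

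**Figure D4:**
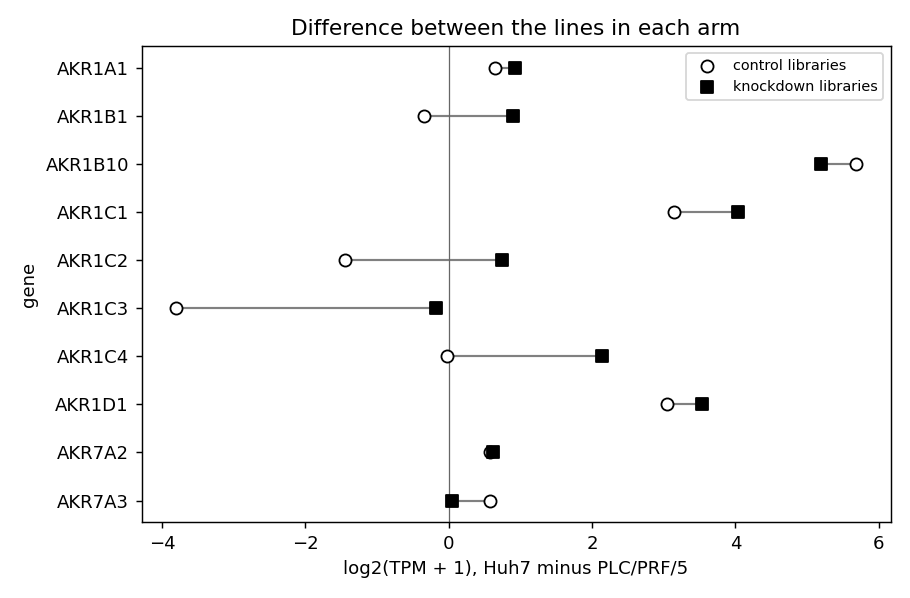
Difference in log2(TPM + 1) between Huh7 and PLC/PRF/5 for each member, between the control libraries (open circles) and between the knockdown libraries (filled squares), joined by a line. AKR1B10 (5.69 and 5.20) and AKR7A2 (0.58 and 0.62) keep their difference, whereas AKR1C3 goes from -3.81 to -0.18.

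The order of the family differed between the control libraries of the 2 lines. In the Huh7 control AKR1C1 led, ahead of AKR1B10, AKR1A1 and AKR1B1, and held 65.1% of the 1284 TPM of all 10 members. In the PLC/PRF/5 control AKR1B1 (110 TPM), AKR1C2 (98.0 TPM), AKR1C1 (93.7 TPM), AKR1A1 (79.4 TPM) and AKR1C3 (72 TPM) stood close together, of 478 TPM in all. With no replicate their order among themselves is not established. The order also changed between the arms. AKR1B1 stood above AKR1A1 in the Huh7 knockdown, and AKR1A1 above AKR1C2 and AKR1C1 in that of PLC/PRF/5. The family sum was 1419 TPM in the Huh7 knockdown and 312 TPM in the PLC/PRF/5 knockdown.

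Other members of the superfamily were low. AKR1E2, AKR7L, AKR1CL1, AKR7A2P1 and the potassium channel beta subunit genes KCNAB1 and KCNAB2, which share the fold, were at 0.77 TPM or less in every library. KCNAB3 was at 1.68 TPM without and 2.90 TPM with the hairpin (Huh7), against 0.37 and 0.85 TPM (PLC/PRF/5).

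NRF2 target genes, listed here without the aldo-keto reductases among them, differed both ways. Of 27 considered in Huh7, 16 were higher and 11 lower in the knockdown, with 4 at least 2-fold higher and 1 lower (median log2 fold change 0.14). Of 26 in PLC/PRF/5, 12 were higher and 14 lower, with 3 at least 2-fold higher and 0 lower (median -0.07). Of all genes considered, 60.2% were higher in the Huh7 knockdown and 63.4% in that of PLC/PRF/5. The 2-fold limit was passed upward by 3.10% and downward by 1.54% in Huh7, and by 1.72% and 1.11% in PLC/PRF/5. The list thus had more upward 2-fold genes for its size, but no larger share of higher genes, which was not tested. The list gene past the limit downward in Huh7 is not named here. The bile transporter gene ABCC2 was at 42.6 TPM without and 110 TPM with the hairpin (Huh7), against 178 and 406 TPM (PLC/PRF/5), and OSGIN1 and the heme oxygenase gene HMOX1 gave log2 fold changes of 1.12 and 0.66 (Huh7), against 1.04 and 1.28 (PLC/PRF/5). The glutathione peroxidase gene GPX2 differed in opposite directions, at 114 TPM without and 261 TPM with the hairpin (Huh7), against 361 and 219 TPM (PLC/PRF/5). NFE2L2, which encodes NRF2, was at 243 and 349 TPM and at 241 and 341 TPM, and its inhibitor gene KEAP1 had log2 fold changes of 0.06 and 0.10, which lie within the rescaling shift.

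Other carbonyl and aldehyde enzymes had medians near 0, below those of all genes (0.08 and 0.10). Of 22 considered in Huh7, 9 were higher, 13 lower and 1 at least 2-fold higher (median -0.03). Of 21 in PLC/PRF/5, 6 were higher, 15 lower and 1 at least 2-fold higher (median -0.12). Among all genes considered, 60.2% were higher in the Huh7 knockdown and 63.4% in that of PLC/PRF/5. At least 2-fold higher were 3.10% in Huh7 and 1.72% in PLC/PRF/5, and 2-fold lower 1.54% and 1.11%. The counts were not tested against these shares. The retinol dehydrogenase gene RDH10 was at 25.1 TPM without and 57.7 TPM with the hairpin (Huh7), against 56.7 and 69.6 TPM (PLC/PRF/5). The mitochondrial acetaldehyde dehydrogenase gene ALDH2 was at 156 and 122 TPM and at 306 and 198 TPM. ALDH3A1 (log2 fold changes -0.14 and 1.22) was at 2.05 TPM or less throughout, and the retinal reductase gene DHRS3 had values of 0.80 and -0.10.

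Steroid hormone enzymes, which share substrates with AKR1C, had no member past 2-fold on the log2(TPM + 1) scale in either line. The list had 17 genes considered in Huh7 (6 higher, 11 lower, median -0.06) and 14 in PLC/PRF/5 (7 higher, 7 lower, median 0.00). Of all genes considered, 60.2% were higher in the Huh7 knockdown and 63.4% in that of PLC/PRF/5. The 2-fold limit was passed upward by 3.10% and downward by 1.54% in Huh7, against 1.72% and 1.11% in PLC/PRF/5. At such shares few genes of so short a list would pass, so nothing is read from none passing. HSD17B7, which also acts in cholesterol synthesis, was at 41.9 TPM without and 27.5 TPM with the hairpin (Huh7), against 37.8 and 54.5 TPM (PLC/PRF/5). HSD17B6 (log2 fold changes -0.99 and -0.09), HSD17B13 (0.50 and 0.48) and the steroid sulfatase gene STS (-0.06 and -0.71) were below 8 TPM.

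Bile acid synthesis genes, the pathway of AKR1D1 and AKR1C4, are given against the share of all genes that were higher in the knockdown library, 60.2% in Huh7 and 63.4% in PLC/PRF/5. Of 10 considered in Huh7, 8 were higher and 2 lower (median 0.26), with 1 at least 2-fold higher. Of 9 in PLC/PRF/5, 4 were higher and 5 lower (median -0.02), with 1 at least 2-fold higher and 2 lower. Past the 2-fold limit were 3.10% of all genes upward and 1.54% downward in Huh7, against 1.72% and 1.11% in PLC/PRF/5. No test set the list against these shares. The bile acid conjugating enzyme gene BAAT was at 0.29 TPM without and 8.06 TPM with the hairpin (Huh7), against 2.10 and 6.26 TPM (PLC/PRF/5). NR1H4, the bile acid receptor FXR, was at 133 TPM without and 99.0 TPM with the hairpin (Huh7), against 5.68 and 0.44 TPM (PLC/PRF/5). The side chain oxidase gene ACOX2 had log2 fold changes of -0.37 and -1.55, and HSD3B7 of 0.66 and 0.08.

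Hepatocyte and hepatoma markers are given beside the AKR1C genes. In PLC/PRF/5, where 63.4% of all genes were higher and 1.11% at least 2-fold lower, 8 of 11 markers considered were lower in the knockdown, 3 of them at least 2-fold (median -0.73). In Huh7, where 60.2% of all genes were higher, 7 of 12 were lower and 5 higher (median -0.26). The summed level of the list went from 5646 to 3792 TPM in PLC/PRF/5 and from 33146 to 29888 TPM in Huh7. The largest genes of the Huh7 sum differed in opposite directions. AFP was at 15421 TPM without and 10302 TPM with the hairpin, and ALB at 6498 and 10479 TPM. The part of the markers in the AKR1C values was not tested.

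None of the 5 genes whose profile was most like that of AKR1C3 was a family member. Likeness to AKR1C3 was taken as the distance between log2(TPM + 1) values centred over the 4 libraries, a description over 4 points. The 5 nearest of 13812 genes were TRIM29 (distance 0.70), ACOT12 (0.87), TM4SF4 (0.87), HIST1H4K (0.99) and ANXA1 (1.03). All 5 were lowest in the Huh7 control, as AKR1C3 was, a trait that choosing by likeness brings with it. ACOT12, an acetyl-CoA thioesterase gene, was at 1.80 TPM without and 10.2 TPM with the hairpin (Huh7), against 16.8 and 15.9 TPM (PLC/PRF/5), and ANXA1, the annexin A1 gene, at 18.3 and 60.5 TPM and at 208 and 183 TPM. These 2 differed little in PLC/PRF/5, unlike AKR1C3. The nearest member was AKR1C2, in place 519 (distance 1.93), and AKR1C1 was in place 13500.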

How the data were processed

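Total RNA from 4 cultures was sequenced, per the labels. The authors deposited 1 gene table per library with TPM values rounded to 2 decimals, per the file headers. Trimming with cutadapt, estimation with RSEM 1.2.21 and the hg19 build are credited to the submitters' processing notes. No aligner, annotation or strand option is given in the sources used here. TPM keeps no depth, so no counting interval was computed. Groups came from the sample titles.

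Log2 fold changes used log2(TPM + 1), which understates changes of low genes; 2-fold is a size rule, not a test. Fits across 13813 genes used limma 3.58.1 in R 4.3.3 with a variance trend, 1 residual and 3.71 prior degrees of freedom, two-sided tests and Benjamini-Hochberg adjustment at 0.05. Libraries are not stated to be separate experiments. The p-values measure only how alike the knockdown difference was in both lines, or the line difference in both arms. The limma fits were tested on simulated data. The members, lists and rules were chosen with earlier results of these data known. Named were all members and other aldo-keto reductases, the 4 genes of each list with the largest mean absolute fold change, the 5 most like AKR1C3, and markers; others are said to be chosen afterwards. AKR1C8P was not matched by symbol, and 1 leukocyte marker is not reported here. Shared words and identities came from GENCODE 29 with Python 3.11.15 and Biopython 1.88, promoter sequences from RefSeq (GRCh38.p14). Tried instead were a pseudocount of 0.1 or 5, no low-value filter or one of 5 TPM, median-ratio scaling, no variance trend, fits without the other term, and summed copies.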

Additional observations from a re-analysis of the deposited data

Results flagged for a closer look

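Among members considered in both lines, 5 differed in opposite directions between knockdown and control. The log2 fold change in Huh7 minus that in PLC/PRF/5 was 3.63 for AKR1C3, 2.18 for AKR1C2, 2.16 for AKR1C4, 1.24 for AKR1B1 and 0.27 for AKR1A1. With 1 library per group this difference between the lines was not tested, and AKR1C3 was chosen for it. Among all 12064 genes considered in both lines, 14.1% were higher in the Huh7 knockdown and lower in the PLC/PRF/5 knockdown. Since the choice of the family used this pattern, the count of members is not read against that share.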

How the results depend on the processing

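The number of genes at least 2-fold different moved with the pseudocount. In Huh7 it was 625, and 1065 with a pseudocount of 0.1 and 247 with 5. In PLC/PRF/5 it was 370, and 728 and 123. The common knockdown fit in limma called 1 gene, 2 with a pseudocount of 0.1, and 0 with a pseudocount of 5, without a TPM filter, without the variance trend or without the cell line term (2334, 2275, 2231 and 98 at an unadjusted p of 0.05). The line difference of each member in the fit kept its direction under every alternative run, except AKR1C4, which a TPM filter of 5 removed. Leaving out AKR1C3, which is given without a test, each also kept its side of the threshold in the runs that held it. Of 20 member fold changes, median-ratio scaling changed the sign of 2 (AKR1B10 in Huh7 and AKR7A3 in PLC/PRF/5, both within 0.06 of 0). The AKR1C sum in PLC/PRF/5 was -0.99, and -1.14 with that scaling, past the 2-fold limit. At that limit, a pseudocount of 5 ended the rule for AKR1C3 in PLC/PRF/5 and AKR1C4 in Huh7, and a pseudocount of 0.1 added AKR1C2 in PLC/PRF/5 and AKR7A3 in Huh7. The sum of the 4 AKR1C genes did not reach the limit in Huh7 (0.07) or in PLC/PRF/5 (-0.99). Most of the Huh7 sum is AKR1C1, so it does not bear on AKR1C2, AKR1C3 and AKR1C4 singly. TPM gives no depth, so low levels such as those of AKR7A3 and AKR1C4 carry an unknown counting error.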

Other observations

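The genes next to the AKR1C cluster had the following values. On one side, KLF6, a zinc finger factor gene, was at 23.3 TPM without and 57.9 TPM with the hairpin (Huh7), against 38 and 116 TPM (PLC/PRF/5), higher in both knockdown libraries. PITRM1, beyond it, had log2 fold changes of 0.26 and 0.38. On the other side, UCN3 had 1.99 TPM without and 6.56 TPM with the hairpin in Huh7 and no more than 0.11 TPM in PLC/PRF/5, TUBAL3 had 1.92 TPM or less, and NET1 had log2 fold changes of 0.19 and 0.17. PFKP, the outermost on the first side, was at 0.48 TPM or less in Huh7, against 84.8 and 79.1 TPM in PLC/PRF/5. In the PLC/PRF/5 knockdown, TUBAL3 (-0.51) and PFKP (-0.10) were lower, KLF6, PITRM1 and NET1 were higher, and UCN3 was too low to be considered, where 63.4% of all genes considered were higher. The value of NET1 is close to the shift made by median-ratio scaling (-0.15 on the log2 ratio). Neighbours were the 3 coding genes on each side that entered the fit, in RefSeq order.

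AKR1C3 was 1 of 8 genes at least 2-fold higher in the Huh7 knockdown and 2-fold lower in the PLC/PRF/5 knockdown, of 12064 considered in both lines. Among the other 7, chosen for naming after their values were seen, IGFBP3, which binds insulin-like growth factors, stood at 8.73 TPM without and 40.5 TPM with the hairpin (Huh7), against 81.4 and 20.2 TPM (PLC/PRF/5). The stress-induced NUPR1 stood at 3.36 and 12.2 TPM, against 132 and 38.7 TPM, the vitamin D degrading enzyme gene CYP24A1 at 0.26 and 1.69 TPM and at 72.3 and 30.0 TPM, and the alcohol dehydrogenase gene ADH1C at 0.12 and 2.38 TPM and at 5.81 and 0.91 TPM. Each of these 4 was lower in the Huh7 control than in the PLC/PRF/5 control, as AKR1C3 was. A choice by opposite differences favours such an order of the controls, so nothing is read from it.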
